A study of Mus musculus with 12 samples.

Results

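Oxidative phosphorylation is the last stage of aerobic energy production in mitochondria. Complex I (NADH dehydrogenase) and complex II (succinate dehydrogenase) pass electrons to ubiquinone, complex III hands them to cytochrome c, complex IV (cytochrome c oxidase) passes them to oxygen, and complex V (ATP synthase) uses the resulting proton gradient to make ATP. Most subunits are encoded in the nucleus and a few in the mitochondrial genome, and some subunits of complex IV exist as isoforms of which 1 is typical of heart and skeletal muscle. Quiescent muscle satellite cells (SCs) are known for low mitochondrial activity, which rises once they are activated. The genes described here are the nuclear genes of these complexes, chosen by symbol alone: those that begin with Nduf followed by a, b, c, s or v, Sdha to Sdhd, and those that begin with Uqcr, with Cox and a digit from 4 to 8, or with Atp5. The rule found 85 of the 13775 genes in the table, 45 of complex I, 4 of complex II, 8 of complex III, 13 of complex IV and 15 of complex V. The complex I genes include 7 assembly factors (Ndufaf), which build the complex without staying in it, and 2 genes marked as pseudogenes were left out.

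SCs of 2-month-old mice were compared in 4 groups of 3 libraries. FoxM1fl/fl mice carry FoxM1 alleles flanked by loxP sites and have no Cre, and FoxM1-cKO mice carry the same alleles with Pax7-Cre, so that FoxM1 is removed in cells that express Pax7 and in their descendants. Each genotype was taken uninjured or 48 h after injury of the hindlimb muscle with barium chloride. About 800 cells were sorted by flow cytometry for each library, the study describes its replicates as biological, but the labels do not say which mouse gave which library, and the p-values measure the spread between these libraries, which may be partly technical. In bulk samples of this kind fewer cells of a type and less RNA per cell cannot be told apart.

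Library depth differed between the conditions, and it can be estimated from the table because most FPKM values are whole multiples of what 1 read is worth in that library (95.74 to 99.35% of the low values tried, among genes with a single transcript). The uninjured libraries held between 170661 and 642010 reads and the injured libraries between 907533 and 2854495. FoxM1 stood at 5.48, 8.95 and 7.38 FPKM in uninjured SCs of FoxM1fl/fl mice, at 0 in the 3 uninjured FoxM1-cKO libraries, at 32.8, 29.4 and 42.0 FPKM after injury in FoxM1fl/fl SCs and stood at 3.48, 1.28 and 0.832 FPKM in injured FoxM1-cKO SCs. At the gene length that made most of them whole, only 3 of the 6 FoxM1 values that could be tried were whole numbers of reads, so this row is a weak check of the labels. Of the 8 satellite cell markers in the table, Cdh15, Itga7, Vcam1 and Chrdl2 were at 0 in all 6 uninjured libraries. Of the other 4, Sdc4 was above 0 in 5 of them, at 48.9 to 458 FPKM, Des was above 0 in the 3 FoxM1-cKO libraries alone, at 7.74 to 91.5 FPKM, Myod1 in 2 FoxM1-cKO libraries and Cd34 in 1. The 15 myofibre markers together took 0.884 to 5.58% of the summed FPKM in uninjured FoxM1fl/fl libraries and 12.7 to 25.8% in uninjured FoxM1-cKO libraries, against 0.0298 to 0.158% in the 6 injured libraries.

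In 3 libraries the values followed a weighted sum of the other 2 libraries of the same group. Of the 650 genes with at least 20 FPKM in FoxM1fl/fl uninjured 2 and 0 in FoxM1fl/fl uninjured 3, 98.0% were above 0 in FoxM1fl/fl uninjured 1, at a median of 0.883 times the first value, and of the 352 genes with the opposite pattern 94.3% were above 0 there, at 0.105 times. FoxM1-cKO uninjured 2 held 92.9% of the 255 genes seen in library 1 but not in library 3, at 0.439 times their value, and 96.7% of the 306 genes seen in library 3 but not in library 1, at 0.526 times. FoxM1fl/fl injured 1 held 100% of 436 and 99.4% of 319 such genes, at 0.676 and 0.322 times. In injured FoxM1-cKO SCs, the group without this pattern, the shares were 33.3 to 48.6%. The pattern is plain in the genes described here: Uqcr11 stood at 22426, 10086 and 0 FPKM in the 3 uninjured FoxM1-cKO libraries, and Ndufa1 at 1622, 828 and 0. The main fit counts each of these libraries as a full replicate, although it adds little that the other 2 do not hold. The p-values of the main fit may therefore be too small. Every comparison below is for this reason also given without the 3 libraries. A fit that leaves out 1 of the other libraries of these groups may still hold part of its values through the weighted sum.

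Far more of the oxidative phosphorylation genes were seen in injured than in uninjured SCs, and in both conditions a larger share of them was above 0 than of all genes. Uninjured FoxM1fl/fl libraries held 30, 21 and 22 of the 85 genes above 0 FPKM and uninjured FoxM1-cKO libraries 20, 36 and 31. Injured FoxM1fl/fl libraries held 67, 61 and 55, and injured FoxM1-cKO libraries 70, 78 and 73. All 6 injured libraries lay above all 6 uninjured ones, as their depth did. Over all 13775 genes the share above 0 was 8.55 to 24.8% in uninjured and 32.4 to 55.0% in injured libraries. Only Atp5a1 and Atp5e, subunits of complex V, and Cox4i1 of complex IV were above 0 in all 12 libraries. The 29 genes at 0 in every uninjured library included 22 of complex I, among them the core subunits Ndufs1, Ndufs7 and Ndufs8, while Cox7a1 was the only gene at 0 in every injured library.

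**Figure D1:**
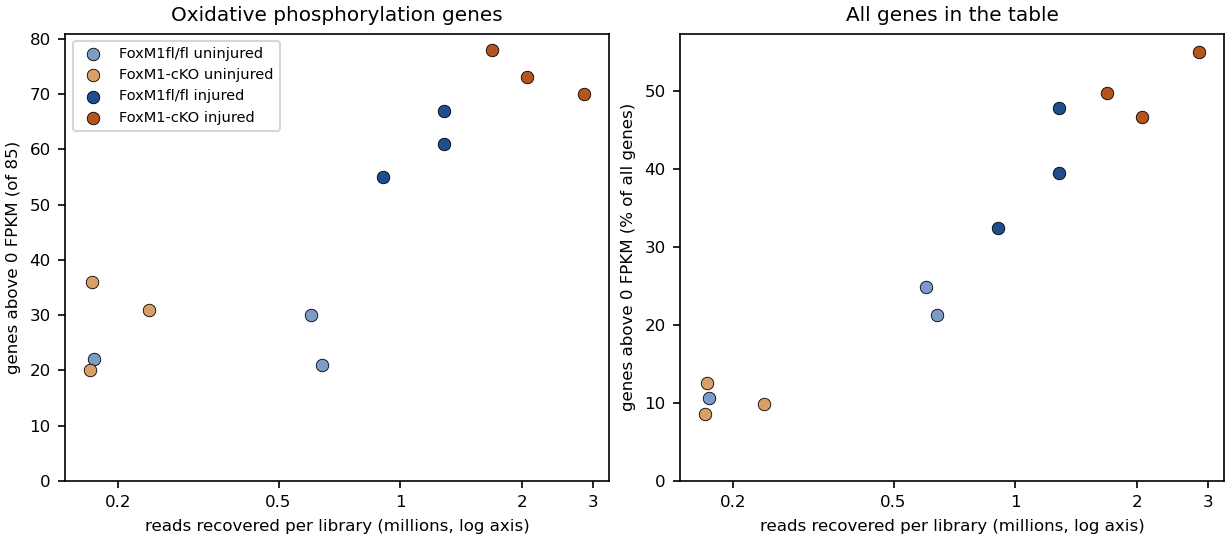
Number of the 85 oxidative phosphorylation genes above 0 FPKM (left) and share of all 13775 genes above 0 (right) against the reads recovered per library, on a log axis, with 1 point per library. The 6 uninjured libraries hold 20 to 36 of the 85 genes and the 6 injured libraries 55 to 78, and the injured libraries are also the deeper ones.

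The values of single genes rest on few reads in uninjured SCs. In uninjured libraries the median gene above 0 had 6 to 17 reads and 1 read was worth a median of 1.403 to 5.28 FPKM, while in injured libraries the median gene had 26 to 127 reads and 1 read was worth 0.316 to 0.993 FPKM. These counts cover the 77 genes for which an annotated transcript length gave whole reads. Replicates also differed widely. In uninjured FoxM1fl/fl SCs 31 of the 85 genes were above 0 in some of the 3 libraries but not in all. The number was 34 in uninjured FoxM1-cKO SCs, and after injury it was 32 in FoxM1fl/fl and 20 in FoxM1-cKO SCs. Among genes above 0 in all 3 libraries of a group, the highest value was a median of 6.69, 8.10, 4.99 and 7.41 times the lowest in the same order of groups.

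**Figure D2:**
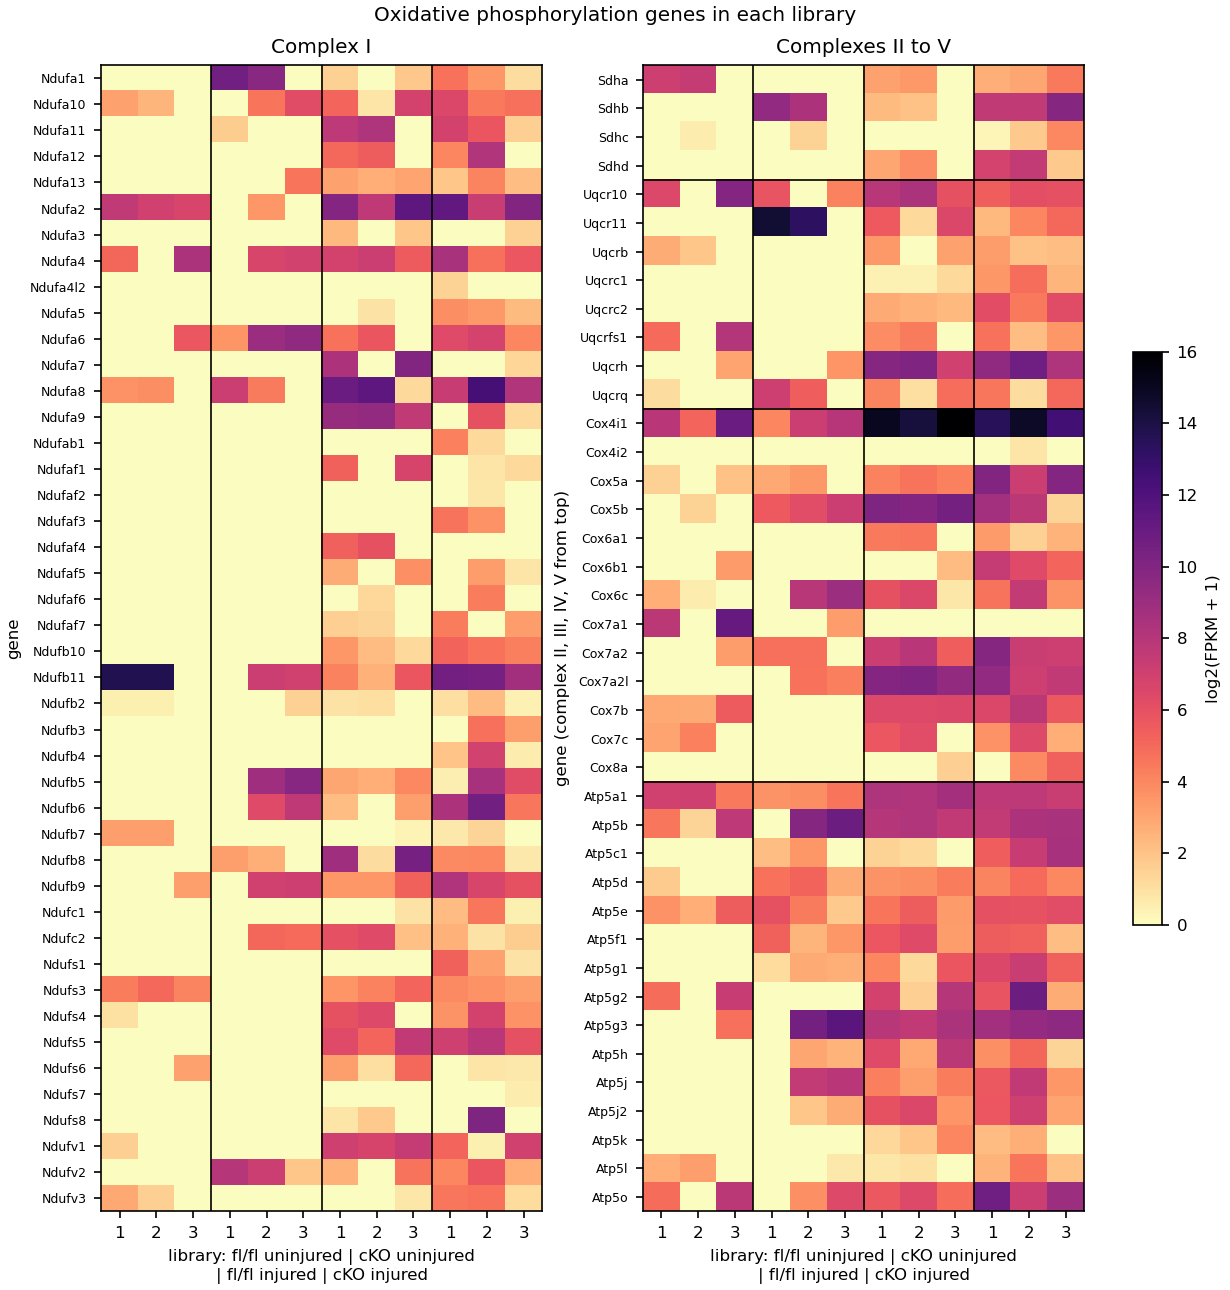
Level of the oxidative phosphorylation genes in each of the 12 libraries as log2(FPKM + 1), from 0 (pale) to 16 (dark), with complex I on the left and complexes II, III, IV and V from top to bottom on the right. Lines separate the groups of 3 libraries and the complexes. Cox4i1 is the darkest row in all 6 injured libraries, and a few genes such as Ndufb11 and Uqcr11 are dark in 2 uninjured libraries of 1 genotype and at 0 in the third.

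The summed level of a complex was usually set by a single gene. The 85 genes together summed to 14731, 14443 and 7100 FPKM before injury in SCs of FoxM1fl/fl mice and to 25567, 16311 and 8748 in uninjured FoxM1-cKO SCs. In injured SCs the sums were 43490, 28481 and 73688 FPKM in FoxM1fl/fl and 24683, 47067 and 13398 in FoxM1-cKO. Cox4i1 alone made up 43.7 to 86.0% of these sums in the 6 injured libraries. Without Cox4i1 the sums were 5186 to 25552 FPKM in uninjured and 7541 to 18979 in injured libraries, and the conditions overlapped.

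Among the uninjured libraries other genes carried the sums. Ndufb11, an accessory subunit of complex I encoded on the X chromosome, stood at 13227, 13624 and 0 FPKM in the FoxM1fl/fl libraries and at 0, 140 and 125 in those of FoxM1-cKO, and made up 96.0 and 96.8% of the complex I sum in the first 2 libraries. In uninjured FoxM1-cKO SCs Uqcr11, a small subunit of complex III, made up 99.2 and 99.6% of the complex III sum of libraries 1 and 2. Atp5g3, 1 of 3 genes for subunit c of the rotor ring of ATP synthase, made up 55.5 and 56.9% of the complex V sum of libraries 2 and 3, at 1483 and 2913 FPKM, and was at 0 in library 1. None of these values was shared by all 3 libraries of its group.

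Complex II had the lowest sum of the 5 complexes in 8 of the 12 libraries, at 0 to 666 FPKM in uninjured and 0 to 953 in injured SCs. It was at 0 in FoxM1fl/fl uninjured 3, FoxM1-cKO uninjured 3 and FoxM1fl/fl injured 3. In the 3 injured FoxM1-cKO libraries all 4 of its genes were above 0, with sums of 308, 380 and 953 FPKM, against 18.3, 25.8 and 0 in injured FoxM1fl/fl SCs. Complex IV stood at 60.7 to 4210 FPKM in uninjured and 7296 to 65623 in injured libraries, and the conditions did not overlap. Complex III, at 2.76 to 22618 FPKM against 319 to 1844, and complex I, at 975 to 14068 against 2352 to 11572, overlapped widely.

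Injury was followed by higher levels of many of these genes in both genotypes. Differences were tested on log2(FPKM + 1) with limma, for the 72 of the 85 genes that had at least 1 FPKM in at least 3 libraries, with p-values adjusted over all 4956 genes that passed this filter, and an adjusted p under 0.05 counted as a call. The 13 genes under the filter were Cox4i2 of complex IV and 12 of complex I, 4 of them assembly factors. Tested genes at 0 in all 6 uninjured libraries, such as Ndufs5, Ndufa9, Uqcrc1 and Uqcrc2, passed the filter through injured libraries alone. In the injury comparisons these genes could rise but not fall, so their direction is no result. Cox7a1 passed the filter through uninjured libraries alone and could fall but not rise, so its direction is no result either. In FoxM1fl/fl SCs 18 of the 72 genes rose (25%, against a background of 18.8% of all tested genes), 2 fell (background 1.92%) and 52 were not called. In FoxM1-cKO SCs 22 rose (30.6%, background 23.4%), none fell (background 1.15%) and 50 were not called. The median difference of the 72 genes was 2.42 on the log2 scale in FoxM1fl/fl and 2.50 in FoxM1-cKO SCs, beside 1.51 and 1.68 for all tested genes. The groups did not overlap for 30 genes in FoxM1fl/fl (41.7%, background 35.4%) and for 32 in FoxM1-cKO (44.4%, background 46.2%).

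Without the 3 weighted-sum libraries no gene was called in either genotype by limma, neither among the 72 nor among all tested genes. At an unadjusted p under 0.05, the count was then 13 of the 72 genes in FoxM1fl/fl and 22 in FoxM1-cKO, beside 654 and 1022 of all tested genes. The shift of all genes depended on the scaling: after quantile normalization the median of all tested genes was 0.14 and 0.10, that of the 72 genes 0.78 and 0.82, and 8 and 5 genes were called. Leaving out FoxM1fl/fl uninjured 1, FoxM1fl/fl uninjured 2 or FoxM1fl/fl injured 1 lowered the count in FoxM1fl/fl SCs from 20 to 7, 12 and 7, and leaving out FoxM1-cKO uninjured 2 lowered that in FoxM1-cKO SCs from 22 to 13.

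**Figure D3:**
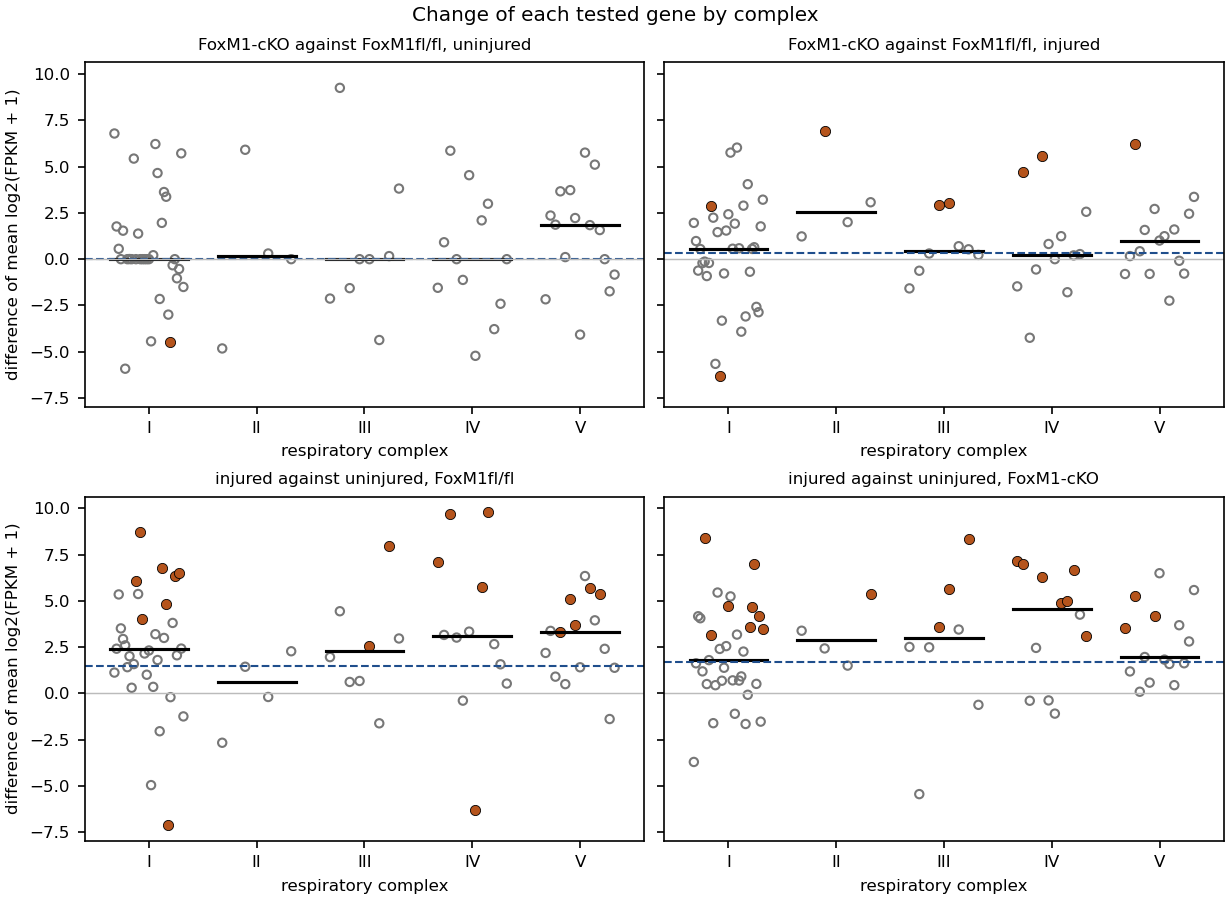
Difference of mean log2(FPKM + 1) for each tested gene, by complex, in the 4 comparisons. Filled points passed an adjusted p under 0.05, black bars are the median of a complex, and the dashed line is the median of all 4956 tested genes. The 2 injury comparisons hold 18 and 22 filled points above 0. Complex IV holds 4 and 7 of these, from 12 tested genes, and complex II 0 and 1, from 4 tested genes. The uninjured genotype comparison holds 1 filled point.

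The 2 injury comparisons share no library, and 8 genes rose in both, which is 44.4% of the genes that rose in FoxM1fl/fl and 36.4% of those that rose in FoxM1-cKO SCs. Among all tested genes 318 rose in both, 34% and 27.5% of those that rose in each. The 8 genes were Ndufs5 and Ndufv1 of complex I, Uqcrh and Uqcrc2 of complex III, Cox4i1, Cox7a2 and Cox7a2l of complex IV, and Atp5g1 of complex V. Of these, Ndufs5 and Uqcrc2 were at 0 in all uninjured libraries and could only rise. The promoters of 3 of them, and that of Cox7a1, whose call in FoxM1fl/fl SCs was a fall, are shown so that their start regions can be compared. The direction of Cox7a1 is no result, as given above. They run from 250 bases before to 50 bases after the start of transcription, 5′ to 3′ on the gene's strand, from RefSeq on GRCm38.p6, and capitals mark matches to any of the motifs searched.
Ndufs5, chr4:123718137-123718436, minus strand: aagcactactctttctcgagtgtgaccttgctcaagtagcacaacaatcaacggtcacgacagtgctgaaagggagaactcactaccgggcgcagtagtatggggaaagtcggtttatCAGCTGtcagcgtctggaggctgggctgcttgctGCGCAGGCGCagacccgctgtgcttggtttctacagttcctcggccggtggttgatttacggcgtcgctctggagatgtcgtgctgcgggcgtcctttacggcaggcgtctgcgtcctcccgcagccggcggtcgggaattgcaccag
Uqcrh, chr4:116075021-116075320, minus strand: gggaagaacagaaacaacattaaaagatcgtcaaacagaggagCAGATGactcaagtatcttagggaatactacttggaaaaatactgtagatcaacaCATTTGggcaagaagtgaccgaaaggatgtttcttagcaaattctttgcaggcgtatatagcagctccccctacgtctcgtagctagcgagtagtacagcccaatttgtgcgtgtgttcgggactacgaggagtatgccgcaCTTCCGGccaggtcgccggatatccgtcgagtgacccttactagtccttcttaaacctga
Cox7a2, chr9:79759804-79760103, minus strand: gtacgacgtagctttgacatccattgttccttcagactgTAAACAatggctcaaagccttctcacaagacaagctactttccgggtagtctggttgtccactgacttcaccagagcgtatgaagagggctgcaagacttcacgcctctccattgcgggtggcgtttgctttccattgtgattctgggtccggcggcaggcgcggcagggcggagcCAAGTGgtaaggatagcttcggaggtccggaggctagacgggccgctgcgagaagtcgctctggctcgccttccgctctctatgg
Cox7a1, chr7:30183921-30184220, plus strand: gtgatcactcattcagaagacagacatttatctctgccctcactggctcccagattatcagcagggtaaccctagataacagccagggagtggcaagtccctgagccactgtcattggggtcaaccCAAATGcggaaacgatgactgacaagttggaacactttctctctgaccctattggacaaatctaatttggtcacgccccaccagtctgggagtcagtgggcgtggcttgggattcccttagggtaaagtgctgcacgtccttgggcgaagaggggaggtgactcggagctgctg

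The motifs were searched on both strands as the NRF1 site (GCGCA, any base, GCGC), the ETS site CCGGAAG, the YY1 site AAGATGGC, the E-box CANNTG and the forkhead site TAAACA. NRF1 and ETS factors such as GABP are known activators of nuclear respiratory genes, E-boxes are bound by myogenic factors among others, and FoxM1 is a forkhead factor. Promoters of 300 bases were found for 70 of the 85 genes, with 75 promoters in all. Of these, 26.7% held the NRF1 site, 22.7% the ETS site, 12% the YY1 site, 69.3% an E-box and 8% the forkhead site, beside 4.6, 8.86, 2.75, 72.3 and 13.4% of all 32851 promoters of that length. Ndufs5 held an NRF1 site at -98, counted from the start, and an E-box. Uqcrh held an ETS site on the other strand at -10 and 2 E-boxes. Cox7a2 held a forkhead site at -211 and an E-box, and Cox7a1 held an E-box alone. None of these matches overlapped another. Of the genes that rose in both comparisons and are not shown, Ndufv1, Cox7a2l and Atp5g1 held E-boxes alone, as Cox7a1 did. Ndufs5, Uqcrh and Cox7a2 thus each held a site that Cox7a1 did not, while Ndufv1, Cox7a2l and Atp5g1 did not. Cox4i1 and Uqcrc2 were not part of this comparison. The part of these motifs in the changes was not tested.

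In complex IV, 4 of the 12 tested genes rose after injury in FoxM1fl/fl SCs (33.3%, background 18.8%) and 1 fell (background 1.92%). In FoxM1-cKO SCs 7 rose (58.3%, background 23.4%) and none fell. The difference between the complexes was not tested. Cox4i1, the usual isoform of the subunit that is central to the assembly and regulation of complex IV, had the largest level. On mm10 it spans chromosome 8 from position 120668222 to 120674207. It stood at 229, 34.6 and 1914 FPKM before injury in SCs of FoxM1fl/fl mice and at 33319, 18730 and 63337 after injury. In FoxM1-cKO SCs it stood at 15.3, 151 and 252 FPKM uninjured and at 11325, 28088 and 5858 after injury. It was among the 14 highest genes of every injured library and second in FoxM1fl/fl injured 3 and FoxM1-cKO injured 2. All injured libraries lay above all uninjured libraries, with a log2 difference of 7.09 (SE 1.38, adjusted p = 0.00487 from limma) in FoxM1fl/fl and 7.17 (SE 1.38, adjusted p = 0.00370 from limma) in FoxM1-cKO SCs. Both calls held whichever single library was left out, and ended without the 3 weighted-sum libraries (adjusted p = 0.176 and 0.0870).

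The other isoforms of complex IV did not share 1 pattern. Cox7a1, the heart and skeletal muscle isoform of subunit VIIa, stood at 223, 0 and 2229 FPKM in uninjured SCs of FoxM1fl/fl mice, at 0, 0 and 8.66 in uninjured FoxM1-cKO SCs, and at 0 in all 6 injured libraries, where 3 reads would be 2.17 to 6.82 FPKM. Its fall in FoxM1fl/fl SCs was called (adjusted p = 0.0474 from limma), although FoxM1fl/fl uninjured 2 was also at 0. As Cox7a1 passed the filter through uninjured libraries alone, this direction is no result. The call ended in 11 of the 12 fits that each left out 1 library, at an adjusted p of up to 0.147. Slc25a4, the muscle isoform of the mitochondrial ADP/ATP exchanger and no member of the complexes, fell in the same comparison from 1224, 1123 and 689 FPKM to 49.4, 50.6 and 52.7 (adjusted p = 0.0279 from limma). Of the 15 myofibre markers, 4 fell in this comparison (26.7%, background 1.92%) and 11 were not called. Their differences were below 0 for 12 and above 0 for 2, and their part in these results was not tested.

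Cox7a2, the isoform of subunit VIIa found in most tissues, stood at 0, 0 and 8.68 FPKM before injury in SCs of FoxM1fl/fl mice and at 149, 227 and 41.8 after injury (adjusted p = 0.0233 from limma). In FoxM1-cKO SCs it stood at 26.7, 26.3 and 0 FPKM uninjured and at 923, 154 and 134 after injury (adjusted p = 0.0373 from limma). The groups did not overlap in either genotype, but the calls ended in 4 and 6 of the 12 fits without 1 library, at an adjusted p of up to 0.0991 and 0.125. Cox7a2l, which takes part in joining complexes III and IV into supercomplexes, was at 0 in FoxM1fl/fl SCs before injury and at 978, 1086 and 649 FPKM after injury (adjusted p = 0.00117 from limma). In FoxM1-cKO SCs it went from 0, 25.2 and 18.3 to 673, 133 and 186 FPKM, a log2 difference of 5.01 (SE 1.32, adjusted p = 0.0166 from limma), and this call ended without FoxM1-cKO injured 1 (adjusted p = 0.0550).

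Cox7b and Cox8a, both small subunits of complex IV, rose in FoxM1-cKO SCs only by the test, and that difference between genotypes did not pass. Cox7b stood at 6.65, 6.22 and 45.7 FPKM in uninjured SCs of FoxM1fl/fl mice, at 0 in uninjured FoxM1-cKO SCs, and at 84.2, 83.2 and 90.3 and at 89.9, 217 and 49.4 after injury (adjusted p = 0.00178 from limma in FoxM1-cKO), with a group mean in FoxM1-cKO at least 6.77-fold higher than 3 reads in any of its uninjured libraries. Cox8a was at 0 in all uninjured libraries and at 0, 14.1 and 40.0 FPKM in injured FoxM1-cKO SCs, and its call held in 1 of the 12 fits without 1 library (adjusted p of up to 0.135). Cox6a1, the non-muscle isoform of subunit VIa, was at 0 in all uninjured libraries and at 21.4, 22.6, 0, 9.04, 1.91 and 4.69 FPKM in the injured ones, without a call. Cox4i2, the isoform known for its role at low oxygen, was seen in FoxM1-cKO injured 2 alone at 0.806 FPKM. Cox6a2, Cox6b2 and Cox8b were not analysed here.

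**Figure D4:**
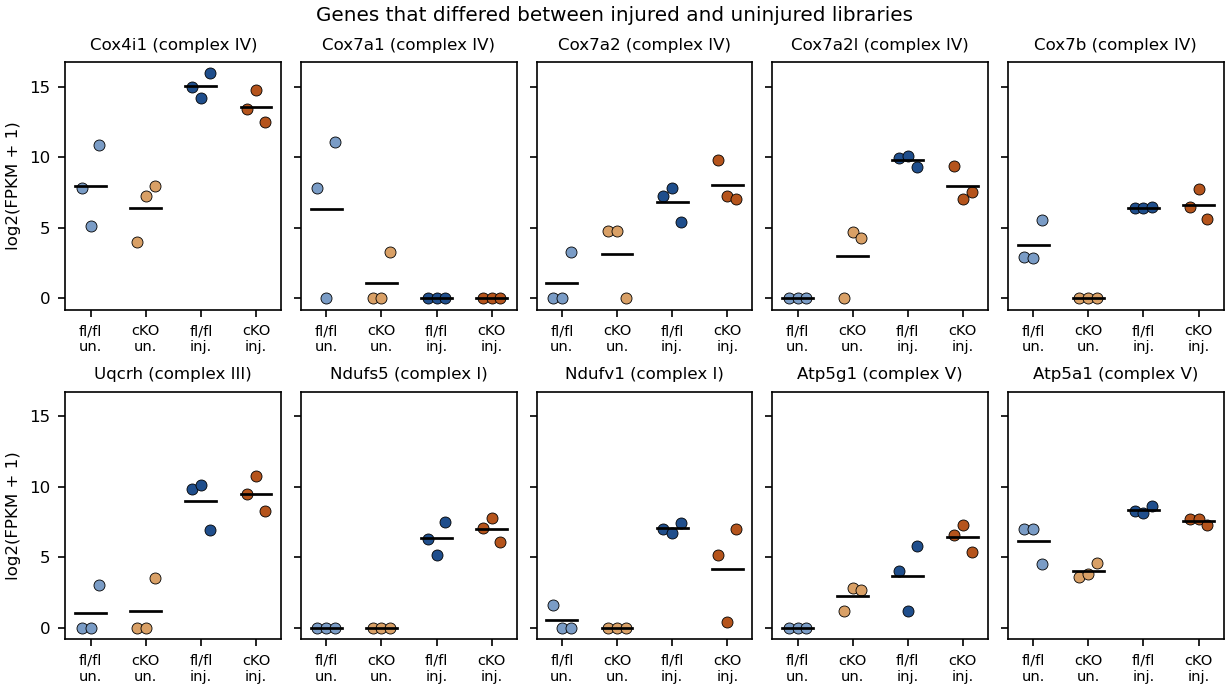
Level of 10 genes in each library as log2(FPKM + 1), with 3 points and a bar at their mean for FoxM1fl/fl (fl/fl) and FoxM1-cKO (cKO) SCs, uninjured (un.) or injured (inj.). Cox4i1, Uqcrh, Ndufs5 and Cox7a2 are higher in all injured than in all uninjured libraries, and Cox7a1 is at 0 in all 6 injured libraries.

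In complex III, 2 of the 8 tested genes rose in FoxM1fl/fl SCs (25%, background 18.8%) and 3 in FoxM1-cKO SCs (37.5%, background 23.4%). The hinge protein Uqcrh and the core proteins Uqcrc1 and Uqcrc2 were among the genes that rose. Uqcrh stood at 0, 0 and 7.14 FPKM in uninjured and 934, 1088 and 124 in injured FoxM1fl/fl SCs (adjusted p = 0.00329 from limma), and at 0, 0 and 10.5 and then 720, 1704 and 313 in FoxM1-cKO SCs (adjusted p = 0.00218 from limma). The uninjured values above 0 were 1 and 2 reads, and the groups did not overlap. Both calls held whichever single library was left out, and ended without the 3 weighted-sum libraries (adjusted p = 0.187 and 0.0881 from limma). Uqcrc2 was at 0 in all 6 uninjured libraries and at 6.17, 4.93 and 4.07 FPKM in injured SCs of FoxM1fl/fl mice, which was called (adjusted p = 0.0499 from limma) and lost in 8 of the 12 fits without 1 library (adjusted p of up to 0.166). In FoxM1fl/fl uninjured 3, however, 3 reads of Uqcrc2 would be 9.05 FPKM, above the mean of 5.06 FPKM in the injured group, so that this difference was not detectable at the depth of that library. In FoxM1-cKO SCs Uqcrc2 reached 70.2, 21.2 and 76.5 FPKM after injury (adjusted p = 0.00146 from limma), with a group mean at least 6.04-fold above 3 reads in any uninjured FoxM1-cKO library.

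In complex I, 7 of the 33 tested genes rose in FoxM1fl/fl SCs (21.2%, background 18.8%) and 1 fell (background 1.92%). In FoxM1-cKO SCs 8 rose (24.2%, background 23.4%). Ndufs5 was at 0 in all 6 uninjured libraries and at 79.2, 34.4 and 181 FPKM in injured SCs of FoxM1fl/fl mice (adjusted p = 0.00182 from limma) and 131, 224 and 65.6 FPKM in injured FoxM1-cKO SCs (adjusted p = 0.00129 from limma). The group means were at least 3.90-fold and 5.42-fold above 3 reads in any uninjured library of the genotype. Both calls held whichever single library was left out, and ended without the 3 weighted-sum libraries (adjusted p = 0.17 and 0.077 from limma). Ndufv1, which carries the NADH binding site, stood at 2.00, 0 and 0 FPKM before injury in SCs of FoxM1fl/fl mice and 130, 105 and 167 after injury (adjusted p = 0.00791 from limma), and at 0 and then 34.2, 0.356 and 126 FPKM in the FoxM1-cKO libraries (adjusted p = 0.0466 from limma). The second call held in 1 of the 12 fits without 1 library (adjusted p of up to 0.142).

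Ndufa2, an accessory subunit, rose in FoxM1-cKO SCs from 0, 10.1 and 0 to 2462, 156 and 1057 FPKM (adjusted p = 0.00199 from limma), and the FoxM1fl/fl values were 195, 123 and 100 FPKM and then 963, 204 and 2722, with no call. Ndufb10, also accessory, was at 0 in all uninjured libraries and at 36.1, 25.5 and 18.6 FPKM in injured FoxM1-cKO SCs (adjusted p = 0.00281 from limma), with 10.3, 3.74 and 1.32 FPKM in injured SCs of FoxM1fl/fl mice. Ndufs4 and Ndufv3 were called in FoxM1-cKO SCs as well (adjusted p = 0.0413 and 0.0295 from limma). Ndufa8, with the highest mean of the injured complex I genes in FoxM1fl/fl SCs, ranged from 1.28 to 2791 FPKM among the 3 libraries there. Another 3 complex I genes rose in FoxM1fl/fl SCs from 0 in all uninjured libraries: Ndufb8 to 452, 1.09 and 1441 FPKM, Ndufa7 to 324, 0 and 985, and Ndufc2 to 64.0, 79.8 and 3.23. Each of these groups held a library close to or at 0, and the calls ended in 5, 11 and 6 of the 12 fits. Of the 7 assembly factors 3 were tested, and Ndufaf1 rose in FoxM1fl/fl SCs (0 in 3 uninjured libraries, then 38.5, 0 and 104 FPKM, adjusted p = 0.0470 from limma), a call that held in 1 of the 12 fits without 1 library (adjusted p of up to 0.167).

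In complex V, 5 of 15 genes rose in FoxM1fl/fl SCs (33.3%, background 18.8%) and 3 in FoxM1-cKO SCs (20%, background 23.4%), and none fell. Atp5f1, Atp5h, Atp5j2, Atp5d and Atp5g1 were called in FoxM1fl/fl SCs. The first 3 belong to the stator and membrane part of the enzyme and were at 0 in all uninjured FoxM1fl/fl libraries, and after injury Atp5f1 stood at 50.6, 80.4 and 8.72 FPKM, Atp5h at 79.2, 6.36 and 221, and Atp5j2 at 60.5, 93.4 and 10.5. Their adjusted p values from limma were 0.0155, 0.0155 and 0.0133, and each call ended without FoxM1fl/fl uninjured 1 or FoxM1fl/fl injured 1 (adjusted p of up to 0.0740, 0.0720 and 0.0636).

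Atp5g1, a second gene for subunit c, was called in both genotypes. It was at 0 in FoxM1fl/fl SCs before injury and at 15.4, 1.32 and 55.2 FPKM after injury (adjusted p = 0.0488 from limma), a call that held in 1 of the 12 fits without 1 library (adjusted p of up to 0.164). In FoxM1-cKO SCs it went from 1.24, 6.13 and 5.34 FPKM to 92.7, 157 and 39.6, with no overlap (log2 difference 4.18, SE 1.22, adjusted p = 0.0259 from limma), and this call ended in 4 of the 12 fits (adjusted p of up to 0.0767). The other subunit c genes were not called: Atp5g2 stood at 28.7, 0 and 160 and then 113, 2.07 and 256 FPKM in the FoxM1fl/fl libraries, and Atp5g3 stood at 0, 0 and 26.5 and then 235, 182 and 337 FPKM. Atp5a1, the alpha subunit of the catalytic head, was above 0 everywhere and rose in FoxM1-cKO SCs from 10.95, 13.0 and 23.6 to 207, 206 and 153 FPKM (log2 difference 3.55, SE 1.05, adjusted p = 0.0271 from limma), a call that ended in 3 of the 12 fits (adjusted p of up to 0.0834). In FoxM1fl/fl SCs Atp5a1 stood at 126, 129 and 21.4 FPKM and then 311, 283 and 394, with no overlap and no call.

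Complex II had 1 call among its 4 tested genes in the injury comparisons, in FoxM1-cKO SCs (25%, background 23.4%). Sdhd, a membrane anchor, was at 0 in all 6 uninjured libraries and at 111, 179 and 2.36 FPKM in injured FoxM1-cKO SCs (adjusted p = 0.0172 from limma), and the call ended in 3 of the 12 fits (adjusted p of up to 0.0581). Sdha, the catalytic flavoprotein, stood at 134, 166 and 0 FPKM in uninjured SCs of FoxM1fl/fl mice, at 0 in uninjured FoxM1-cKO SCs, and at 0 to 9.40 and 5.44 to 21.4 FPKM in injured FoxM1fl/fl and FoxM1-cKO SCs. Sdhc, the other anchor, stayed at or under 14.4 FPKM in all libraries. Neither Sdha nor Sdhc was called in any comparison.

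For 2 more genes called in injured against uninjured FoxM1-cKO SCs the uninjured depth did not allow the difference to be seen. Ndufa5 was at 0 uninjured and had a mean of 8.71 FPKM after injury, and Ndufs3 was at 0 and had a mean of 11.4 FPKM, while 3 reads in the shallowest uninjured library would be 20.1 and 16.8 FPKM. Ndufs3 was also called in uninjured SCs.

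In uninjured SCs the genotypes differed in 1 of the 72 genes. Ndufs3, a core subunit of complex I, stood at 19.1, 31.3 and 16.4 FPKM in SCs of FoxM1fl/fl mice, which were 12, 21 and 3 reads, and at 0 in all 3 FoxM1-cKO libraries (adjusted p = 0.0289 from limma). No gene rose (background 0.868%) and 1 fell (1.39%, background 0.666%). The mean of the FoxM1fl/fl libraries was at least 1.32-fold higher than 3 reads in any FoxM1-cKO library. The call ended without FoxM1fl/fl uninjured 1, FoxM1-cKO uninjured 2 or FoxM1fl/fl injured 1 (adjusted p of up to 0.141) and without the 3 weighted-sum libraries (adjusted p = 0.983). The count rose to 10 when FoxM1-cKO uninjured 1 was left out and to 7 when FoxM1-cKO uninjured 3 was. It was 5 without FoxM1fl/fl uninjured 3, 3 without FoxM1fl/fl uninjured 2 and 2 without FoxM1-cKO injured 3. The median difference of the 72 genes was 0, as for all tested genes.

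The groups did not overlap for 8 of the 72 genes in uninjured SCs (11.1%, background 7.1%), 5 of them higher and 3 lower in FoxM1-cKO. Next to Ndufs3, Ndufa2 was lower (195, 123 and 100 FPKM against 0, 10.1 and 0, adjusted p = 0.0640 from limma) and so was Cox7b. Cox5b, a peripheral subunit of complex IV, was higher at 47.4, 73.6 and 150 FPKM against 0, 1.80 and 0 (adjusted p = 0.114 from limma), and Atp5d, the delta subunit of the ATP synthase stalk, was higher at 24.9, 36.9 and 5.96 FPKM against 2.36, 0 and 0 (adjusted p = 0.130 from limma). The largest difference was that of Uqcr11, which was at 0 in all FoxM1fl/fl libraries and also in FoxM1-cKO uninjured 3 (adjusted p = 0.163 from limma). Without the 3 weighted-sum libraries no gene was called, and 6 of the 72 and 158 of all tested genes had an unadjusted p under 0.05. In uninjured SCs the summed share of the myofibre markers was higher in FoxM1-cKO than in FoxM1fl/fl SCs, as given above. The difference was above 0 for all 15, but 1 was called higher (6.67%, background 0.868%) and 3 lay wholly higher (20%, background 7.1% in either direction). Mb stood at 42633, 18951 and 0 FPKM against 188, 141 and 103, and Tnni2 at 380, 1028 and 1154 against 275, 10.4 and 1975. The part of these markers in the differences was not tested.

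In injured SCs 8 of the 72 genes differed between the genotypes, 7 higher in FoxM1-cKO SCs (9.72%, background 5.15%) and 1 lower (1.39%, background 2.66%). Each of the 5 complexes held at least 1 gene that was higher, in complex I Ndufa5 alone. Ndufa5 reached 1 FPKM in the injured FoxM1-cKO libraries only, so its direction is no result. Uqcrc1 and Cox6b1 also needed those libraries to pass the filter, and Ndufa9 needed those of injured FoxM1fl/fl. For these genes the filter favoured the direction seen. The groups did not overlap for 22 genes, 18 of them higher and 4 lower (30.6%, background 23.1%), and the median difference was 0.58 on the log2 scale, beside 0.32 for all tested genes. Without FoxM1fl/fl injured 1 a single gene was called, Atp5c1, and without FoxM1fl/fl uninjured 1 or FoxM1-cKO uninjured 2 the count was 4. Without the 3 weighted-sum libraries no gene was called by limma, neither among the 72 nor among all tested genes, with 10 of the 72 and 461 of all genes at an unadjusted p under 0.05. Quantile normalization left 2 calls and a median of 0.18 beside 0.07 for all tested genes. The injured FoxM1-cKO libraries were the deepest, with 1693008 to 2854495 reads against 907533 to 1284060, and the part of depth in these results was not tested. Of the 6 markers of fibro-adipogenic cells, another cell type of muscle, 2 were called higher in injured FoxM1-cKO SCs (33.3%, background 5.15%). Of these markers 4 lay wholly higher and none wholly lower (66.7%, background 23.1% in either direction), and the median difference was 1.99. Dcn and Ly6a went the other way, with log2 differences of -0.627 and -2.08, and neither was called (adjusted p = 0.792 and 0.165 from limma). Pdgfra stood at 0.114, 0.342 and 0 FPKM in FoxM1fl/fl and 45.4, 196 and 13.6 in those of FoxM1-cKO, with an adjusted p of 0.00772 from limma. Together the markers took 0.0162 to 0.0335% of the summed FPKM in FoxM1fl/fl and 0.0397 to 0.145% in FoxM1-cKO libraries, and their part in these results was not tested.

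Atp5c1, the gamma subunit that forms the central stalk of ATP synthase, had the smallest p. It stood at 1.80, 1.35 and 0 FPKM after injury in FoxM1fl/fl SCs and stood at 41.0, 164 and 373 in injured FoxM1-cKO SCs, with a log2 difference of 6.20 (SE 1.15, adjusted p = 0.00631 from limma). The call held whichever single library was left out and ended without the 3 weighted-sum libraries (adjusted p = 0.266). Sdhb, the iron-sulfur subunit of complex II, stood at 3.80, 3.16 and 0 against 191, 191 and 914 FPKM (log2 difference 6.90, SE 1.97, adjusted p = 0.0487 from limma), and this call held in 2 of the 12 fits without 1 library (adjusted p of up to 0.132).

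The core proteins of complex III were both higher in injured FoxM1-cKO SCs. Uqcrc1 stood at 0.316, 0.315 and 1.34 FPKM against 10.1, 28.2 and 4.51 (log2 difference 2.93, SE 0.72, adjusted p = 0.0238 from limma), where the FoxM1fl/fl values were 1, 1 and 3 reads. Uqcrc2 stood at 6.17, 4.93 and 4.07 against 70.2, 21.2 and 76.5 FPKM (log2 difference 3.05, SE 0.86, adjusted p = 0.0475 from limma). The Uqcrc1 call ended in 3 of the 12 fits without 1 library (adjusted p of up to 0.134) and the Uqcrc2 call in 9 of them (adjusted p of up to 0.134). The remaining 6 genes of complex III, Uqcrh among them, were not called.

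In complex IV, Cox5a and Cox6b1 were higher. Cox5a, a subunit on the matrix side, stood at 16.7, 24.4 and 17.6 FPKM in the injured libraries of FoxM1fl/fl and 1055, 148 and 971 in those of FoxM1-cKO, which had also risen from 6.44, 9.54 and 0 FPKM uninjured (log2 difference between the injured groups 4.72, SE 1.26, adjusted p = 0.0352 from limma). The call ended in 6 of the 12 fits without 1 library (adjusted p of up to 0.139). Cox6b1, the isoform of subunit VIb found in most tissues, stood at 0, 0 and 3.57 FPKM, the latter being 2 reads, against 166, 80.3 and 34.5 (adjusted p = 0.0101 from limma), and its call was lost without FoxM1fl/fl injured 1, at an adjusted p of 0.0688 from limma.

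Complex I held a gene in each direction. Ndufa5 stood at 0, 0.89 and 0 FPKM in injured SCs of FoxM1fl/fl mice, which was 1 read in all, and at 12.8, 9.45 and 3.88 in injured FoxM1-cKO SCs (adjusted p = 0.00945 from limma). It passed the filter through the injured FoxM1-cKO libraries alone, so this direction is no result. Ndufa9, an accessory subunit that helps hold the arms of the complex together, was lower in FoxM1-cKO SCs, at 558, 654 and 192 FPKM against 0, 62.1 and 1.34 (log2 difference -6.29, SE 1.36, adjusted p = 0.0129 from limma). Leaving out FoxM1fl/fl injured 1 ended both calls, at an adjusted p of 0.0846 and 0.0677 from limma. In FoxM1fl/fl SCs Ndufa9 was also among the genes that rose most after injury, from 0 in all 3 libraries, to a mean at least 39.4-fold higher than 3 reads in any of them (adjusted p = 0.00182 from limma), and in FoxM1-cKO SCs it was not called.

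**Figure D5:**
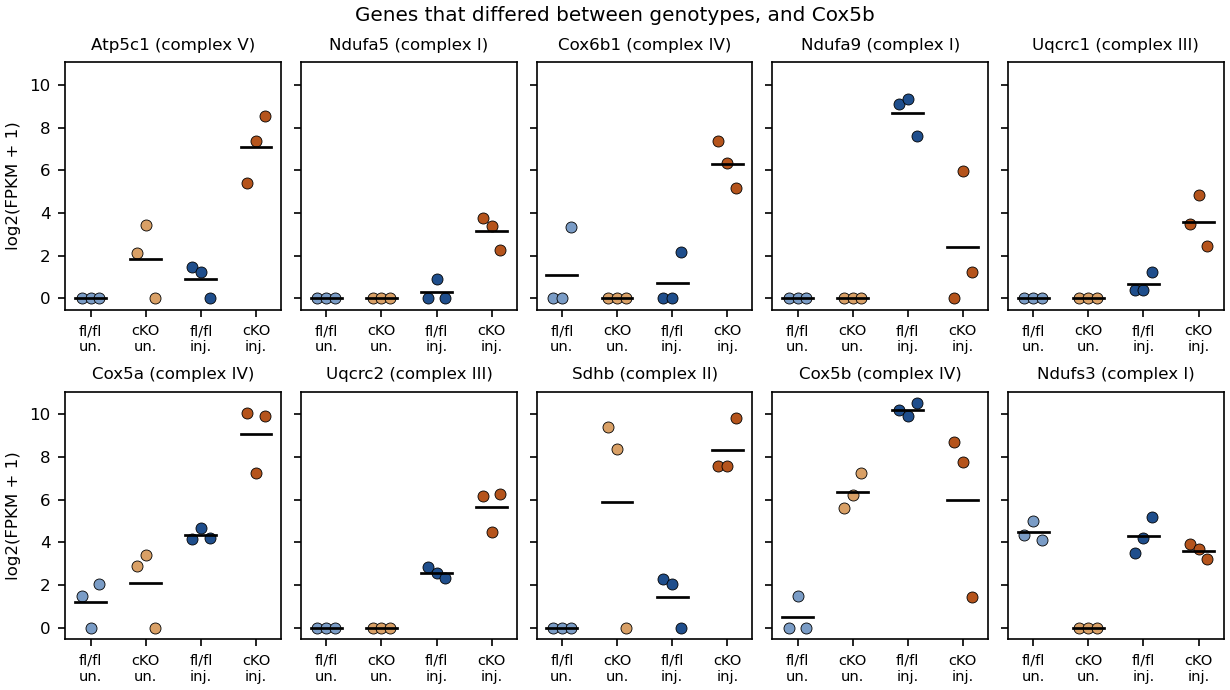
Level of 10 genes in each library as log2(FPKM + 1), with 3 points and a bar at their mean for each group, named as in the other panels: FoxM1fl/fl (fl/fl) and FoxM1-cKO (cKO), uninjured (un.) and injured (inj.). The first 8 passed the test in injured SCs, with Ndufa9 lower and the others higher in FoxM1-cKO, Ndufs3 passed in uninjured SCs, and Cox5b is higher in uninjured and lower in injured FoxM1-cKO SCs.

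The effect of genotype was not shown to differ between uninjured and injured SCs for any of the 72 genes (0 called by limma, background 1.09%). An unadjusted p under 0.05 was reached by 21 of them, beside 1076 of all 4956 tested genes. Without FoxM1fl/fl uninjured 3 the count of calls was 7, and over all fits without 1 library it ran from 0 to 7. Cox5b came closest, with a log2 difference of -10.10 between the effects (SE 2.29, adjusted p = 0.0524 from limma), followed by Cox6b1 (6.68, SE 1.62, adjusted p = 0.0562 from limma). Cox5b rose after injury in FoxM1fl/fl SCs, from 0, 1.80 and 0 to 1155, 953 and 1480 FPKM (adjusted p = 0.00221 from limma), and stood at 412, 216 and 1.68 FPKM in injured FoxM1-cKO SCs.

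The respiratory subunits encoded in the mitochondrial genome were tested beside the nuclear ones. The table lists 12, of which 11 were tested. After injury 2 rose in each genotype (18.2%, background 18.8% in FoxM1fl/fl and 23.4% in FoxM1-cKO). They were mt-Co1, the catalytic subunit of complex IV, and mt-Nd5 in FoxM1fl/fl SCs (adjusted p = 0.0125 and 0.0284 from limma). In FoxM1-cKO SCs they were mt-Cytb of complex III and mt-Nd1 (adjusted p = 0.0153 and 0.0487 from limma). mt-Co1 stood at 14.0, 20.2 and 33.3 FPKM in uninjured and 547, 517 and 645 in injured SCs of FoxM1fl/fl mice, and at 163, 86.1 and 19.0 and then 289, 80.3 and 79.4 in FoxM1-cKO SCs. None was called between the genotypes. In injured SCs 10 of the 11 were on the lower side in FoxM1-cKO, with a median difference of -1.26, whereas the median of the 72 nuclear genes was 0.58, and 6 of the 11 lay wholly lower (background 5.87% of all tested genes). That difference between nuclear and mitochondrial genes was not tested. The summed mitochondrial subunits made up 0.0103 to 0.209% of the FPKM of a library. The library protocol selects polyadenylated RNA, and its part in this share was not tested.

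Genes around the complexes were counted beside the same shares of all tested genes. Among 16 tested genes of the tricarboxylic acid cycle, 2 rose after injury in FoxM1fl/fl SCs (12.5%, background 18.8%), Pdhb and citrate synthase Cs. Cs stood at 1.11, 0 and 1.90 FPKM uninjured against 83.4, 109 and 19.8 injured (adjusted p = 0.00755 from limma). In FoxM1-cKO SCs 5 rose (31.2%, background 23.4%), Mdh2, Idh2, Pdha1, Fh1 and Ogdh, and none differed between genotypes. Of 13 tested assembly factors outside the symbols used here, 2 rose after injury in FoxM1fl/fl (15.4%) and 1 in FoxM1-cKO SCs (7.69%). Of 11 tested electron carriers, exchangers and related genes, Atpif1 rose (9.09%) and Slc25a4 fell (background 1.92%) in FoxM1fl/fl SCs. Of 4 tested regulators of mitochondrial biogenesis, Nrf1, a transcription factor of respiratory genes, and Polg, the mitochondrial DNA polymerase, rose after injury in FoxM1fl/fl SCs (50%, background 18.8%). Both were lower in injured FoxM1-cKO than in injured FoxM1fl/fl SCs (50%, background 2.66%, adjusted p = 0.0144 and 0.0221 from limma). Both reached 1 FPKM in the 3 injured FoxM1fl/fl libraries alone and passed the filter through them, so these directions and shares are no result. Without the 3 weighted-sum libraries no gene was called in either comparison. Nrf1 stood at 0 in all uninjured libraries, at 1.93, 2.12 and 7.91 FPKM after injury in FoxM1fl/fl SCs and stood at 0.173, 0 and 0 FPKM in injured FoxM1-cKO SCs.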

How the data were processed

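RNA of about 800 sorted SCs per library was amplified after polyA selection. The authors aligned reads to mm10 with Bowtie 0.12.9 and computed the deposited FPKM values (fragments per kilobase of transcript, scaled to library size) with Cufflinks 2.1.1. Their HTSeq counts and DESeq2 fit were not used here. Whole reads were recovered from the FPKM with GENCODE M21 transcript lengths, within 0.02 reads for values under 100 reads, for 77 of 85 genes.

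The 12 libraries were grouped by their labels. log2(FPKM + 1) was fitted with limma 3.58.1 in R 4.3.3, with 4 group means, a mean-variance trend and Benjamini-Hochberg adjustment over 4956 genes, those that reached 1 FPKM in 3 or more libraries. Fold changes on this scale understate those of low genes. The fit was tested on simulated data. The genes named were those called in any comparison (at most 12 each, by p), tissue isoforms and their partners, and the highest genes. Members and lists were chosen with earlier results of these data known. Reads of near-identical copies could be shared between genes and pseudogenes. Pax7 and Myf5 are not analysed here. A complex I gene is included in the counts but is not reported here by name. Pseudocounts, filters, scalings, designs and left-out libraries were varied.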

Additional observations from a re-analysis of the deposited data

Results flagged for a closer look

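Cox5b, a peripheral subunit of complex IV, had values that lay in opposite directions between the genotypes in the uninjured and injured conditions, and neither genotype difference passed the test (adjusted p = 0.114 and 0.138 from limma). All 3 uninjured FoxM1-cKO libraries (47.4, 73.6 and 150 FPKM) lay above all 3 uninjured FoxM1fl/fl libraries (0, 1.80 and 0 FPKM). All 3 injured FoxM1-cKO libraries (412, 216 and 1.68 FPKM) lay below all 3 injured FoxM1fl/fl libraries (1155, 953 and 1480 FPKM). The difference between the effects was -10.10 on the log2 scale and did not pass the test (adjusted p = 0.0524 from limma).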

How the results depend on the processing

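Of 51 calls of single genes, 20 held whichever library was left out, none changed direction in any setting, and none held without the 3 weighted-sum libraries, where the count was 0 in every comparison. In uninjured SCs the count between genotypes was 1, and it was 6 with a pseudocount of 0.1, 0 with a pseudocount of 5, 0 with no filter, 6 with a stricter filter, 3 with median-ratio scaling, 2 with quantile normalization, 2 after rescaling without Gm23935, 0 with the compared groups alone, 4 with no mean-variance trend and 0 to 10 without 1 library. In injured SCs it was 8, and it was 5 with a pseudocount of 0.1, 2 with no filter, 0 with a stricter filter, 5 with median-ratio scaling, 2 with quantile normalization, 5 after rescaling without Gm23935, 0 with the compared groups alone and 1 to 9 without 1 library. After injury in FoxM1fl/fl SCs it was 20, and it was 10 with a pseudocount of 5, 10 with no filter, 13 with a stricter filter, 8 with quantile normalization and 7 to 21 without 1 library. After injury in FoxM1-cKO SCs it was 22, and it was 13 with no filter, 14 with a stricter filter, 14 with median-ratio scaling, 5 with quantile normalization and 13 to 24 without 1 library. For the difference between effects it was 0, and it was 4 with a pseudocount of 0.1, 2 after rescaling without Gm23935, 3 with no mean-variance trend and 0 to 7 without 1 library. The median of that difference, 0.36, was -0.0676 with a stricter filter and -0.17 to 0.65 without 1 library. The causes were not tested. With the replicate number as a block the counts were 0, 5, 17, 23 and 0 in the same order. The correlation of same-numbered libraries was -0.032 to 0.054, so the numbers do not pair the samples. The shallow uninjured libraries, at 170661 to 642010 reads, limit what can be seen at 0.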

Other observations

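Ppargc1b, a coactivator of mitochondrial genes, stood at 1521 and 1797 FPKM in FoxM1fl/fl uninjured 1 and 2 and at 0 in FoxM1fl/fl uninjured 3. Of the macrophage markers, Lyz2 was at 0 in all uninjured libraries and at 454, 30.2 and 1330 FPKM in injured FoxM1fl/fl and 621, 4.04 and 99.9 FPKM in injured FoxM1-cKO libraries. Ptprc stood at 224 and 248 FPKM in FoxM1fl/fl uninjured 1 and 2, at 0.103 FPKM in FoxM1-cKO injured 2 and at 0 elsewhere. The other 4 macrophage markers in the table, Csf1r, C1qa, C1qb and C1qc, were at 0 in all uninjured libraries and at 0 to 18.4 FPKM in the injured ones. The fibro-adipogenic markers took 0.0621 to 0.0702% of the summed FPKM of FoxM1fl/fl libraries before injury and 0.277 to 0.291% of those of FoxM1-cKO. Their part in the results was not tested.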
